A study of Mus musculus with 16 samples.

Results

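The 4 MEF2 genes of the mouse, Mef2a, Mef2b, Mef2c and Mef2d, were examined for open chromatin in C2C12 myoblasts, a mouse skeletal muscle line that divides in serum and begins to form muscle when serum is withdrawn. Every peak with its summit in the gene body or within 50 kb of either end was taken as belonging to that gene, by GENCODE release M21 on mm10. Overlapping peaks of the libraries compared were merged into regions. The 4 windows held 46 of 80290 regions when all deposited peaks were used. They held 18 of 26213 regions when only the top 14710 peaks of a list by p-value were kept, as many as the shortest list compared holds. Those shortened lists are called the equal-length lists.

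The assay was ATAC-seq, in which a transposase cuts accessible DNA and the fragments are sequenced, and the question was what a raised dose of MyoD1 and 24 h of differentiation do to accessibility at these genes. All groups carried the endogenous Myod1 gene and a doxycycline (dox)-inducible Halo-MyoD1 transgene in the line called iMyoD1, a polyclonal population in which only some nuclei express the transgene. GM no dox cells were kept undifferentiated in growth medium with vehicle for 24 h, and GM +dox cells received dox for 24 h in the same medium. DM no dox and DM +dox cells were serum-starved for 24 h in differentiation medium with vehicle or dox. Seeding was at 75000 cells per GM well and 300000 per DM well, so medium and density cannot be told apart in any DM against GM comparison.

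There were 4 libraries in each group. The study left replicate 1 of both DM groups out as quality outliers, with 1287 peaks without dox and 14236 with dox, and 14 libraries were compared here. The kept lists held 14710 to 49300 peaks in GM no dox, 36531 to 58587 in GM +dox, 23690 to 40599 in DM no dox and 46241 to 51340 in DM +dox. Lists were longer with dox on average, without overlap in DM and with overlap in GM, and this difference stands beside every count over all deposited peaks. Background coverage recovered from the peak values was 0.3391 to 1.127 fragments per base. Of 6 myoblast markers, Myod1 had a start-site peak in 14 of 14 kept lists, Des in 13, Cdh15 in 10, Pax7 in 9, Myf5 in 6 and Vcam1 in 4. In the equal-length lists Myod1 had one in 14 and Cdh15 in 3, and Des, Pax7, Myf5 and Vcam1 had none. Of 8 markers of other lineages, 7 had no start-site peak in any kept list, and Pecam1 had one in 8 full lists, more than Myf5 or Vcam1, and in 0 equal-length lists.

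MEF2 proteins are MADS-box transcription factors that bind an A/T-rich site and act with MyoD-family proteins in muscle differentiation. Class IIa histone deacetylases hold them inactive, and kinases such as p38 and ERK5 raise their activity. In myoblast lines Mef2a and Mef2d are known to be active early, Mef2c is known as a gene of later differentiation and of heart, brain and blood cells, and Mef2b is best known from lymphocytes. Mef2a, on the minus strand of chromosome 7 (chr7:67231163-67372858), had a window of 241.7 kb with 1 other coding gene, Lysmd4. Mef2c, on the plus strand of chromosome 13 (chr13:83504034-83667080), had a window of 263.0 kb with no other coding gene. Mef2b (chr8:70139711-70167488, plus strand) lay in a gene-dense window of 127.8 kb with 7 other coding genes, and Mef2d (chr3:88142372-88172086, plus strand) in one of 129.7 kb with 1, Iqgap3.

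The results turn most on 6 of the open regions at these genes, and their 201 bases centred on the summit are given from the GRCm38 reference, plus strand. The first 3 lie at Mef2a and are its strongest distal regions and the one whose values stood apart with dox in both media, the next 2 had a peak in every DM +dox library and in no DM no dox library, and the last is the strongest region upstream of Mef2d. Capitals mark matches to the MyoD-type E-box CAGCTG, to the AP-1 site TGANTCA or to the MEF2 box, and the TEAD site M-CAT (CATTCC), also searched, is in none of them.
Mef2a, 18.2 kb upstream (chr7:67390911-67391111): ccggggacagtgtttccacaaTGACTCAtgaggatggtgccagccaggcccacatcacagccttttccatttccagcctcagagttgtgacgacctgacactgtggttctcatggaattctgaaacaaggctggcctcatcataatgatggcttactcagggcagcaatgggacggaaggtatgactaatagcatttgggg
Mef2a, 12.4 kb upstream (chr7:67385136-67385336): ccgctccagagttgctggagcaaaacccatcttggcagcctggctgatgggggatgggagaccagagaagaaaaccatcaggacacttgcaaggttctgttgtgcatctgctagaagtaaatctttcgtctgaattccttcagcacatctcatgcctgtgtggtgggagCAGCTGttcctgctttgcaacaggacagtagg
Mef2a, intronic, 85.2 kb downstream of the start (chr7:67287525-67287725): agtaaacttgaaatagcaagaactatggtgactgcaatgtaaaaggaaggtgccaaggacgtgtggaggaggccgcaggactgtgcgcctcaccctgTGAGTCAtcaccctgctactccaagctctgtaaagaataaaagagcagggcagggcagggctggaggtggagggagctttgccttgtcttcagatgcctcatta
Mef2a, 49.0 kb upstream (chr7:67421744-67421944): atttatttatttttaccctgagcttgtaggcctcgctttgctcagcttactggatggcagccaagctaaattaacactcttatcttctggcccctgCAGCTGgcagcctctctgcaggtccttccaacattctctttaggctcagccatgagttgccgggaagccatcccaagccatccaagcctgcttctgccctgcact
Mef2c, intronic, 100.1 kb downstream of the start (chr13:83603994-83604194): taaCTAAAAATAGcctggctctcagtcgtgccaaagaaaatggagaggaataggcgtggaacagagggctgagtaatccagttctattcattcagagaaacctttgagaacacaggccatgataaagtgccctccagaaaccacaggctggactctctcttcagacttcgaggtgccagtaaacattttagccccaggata
Mef2d, 14.1 kb upstream (chr3:88128218-88128418): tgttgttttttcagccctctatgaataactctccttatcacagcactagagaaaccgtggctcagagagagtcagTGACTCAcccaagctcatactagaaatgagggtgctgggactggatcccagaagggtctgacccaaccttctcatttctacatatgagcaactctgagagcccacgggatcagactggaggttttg

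Both strands were searched, and no match overlapped another in these 6 windows. Over the summit windows of all 46 regions, an E-box was present in 8, against 19.8% of all 80290 regions, and an AP-1 site in 11, against 32.0%. M-CAT was present in 1 of the 46 (17.6% of all regions). A MEF2 box was present in 1 of the 46, against 0.597% of all regions, and that window was the Mef2c intronic one. The AP-1 match of the Mef2a intronic window began 3 bases from the summit and the E-box at 49.0 kb upstream 4 bases from it, whereas the MEF2 box at Mef2c lay 97 bases away. The windows at 18.2 kb and 12.4 kb upstream of Mef2a held 1 AP-1 site and 1 E-box, 79 and 69 bases from their summits. A window in a coding exon of Tmem161a, 42.4 kb downstream of the Mef2b start, held E-boxes 10 and 21 bases from its summit. Median GC content was 53.2% in the 46 windows and 50.7% over all regions. These matches describe the letters only.

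Mef2c had the fewest peaks of the 4 genes. Its 263.0-kb window held 0 peaks of the equal-length lists in each of the 14 kept libraries and in both left-out ones. A window without a peak was not particular to Mef2c, since 25.3% of 21951 coding genes had no peak in any of the 14 equal-length lists, and of the 1305 genes with a window at least as long as that of Mef2c, 23.3% had none. Among all deposited peaks Mef2c averaged 0.597 peaks per 100 kb of window, below the median gene at 2.57, and 22.6% of genes had a lower density. Its 3 regions were listed in 8, 5 and 9 of the 14 libraries.

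The other members lay above the median gene. In the equal-length lists Mef2a held 1.45 peaks per 100 kb, Mef2d 1.76 and Mef2b 3.41, against a median of 0.943 over all coding genes. Lower densities were found in 62.0%, 69.1% and 89.7% of genes, respectively. With all deposited peaks the order was kept, with Mef2a at 3.04, Mef2d at 5.62 and Mef2b at 5.76 per 100 kb. The Mef2b and Mef2d values differed by less than the spread between libraries, whose peak numbers ran from 1 to 11 at Mef2b and from 3 to 11 at Mef2d. The Mef2b density also counts the start sites of its 7 neighbours.

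**Figure D1:**
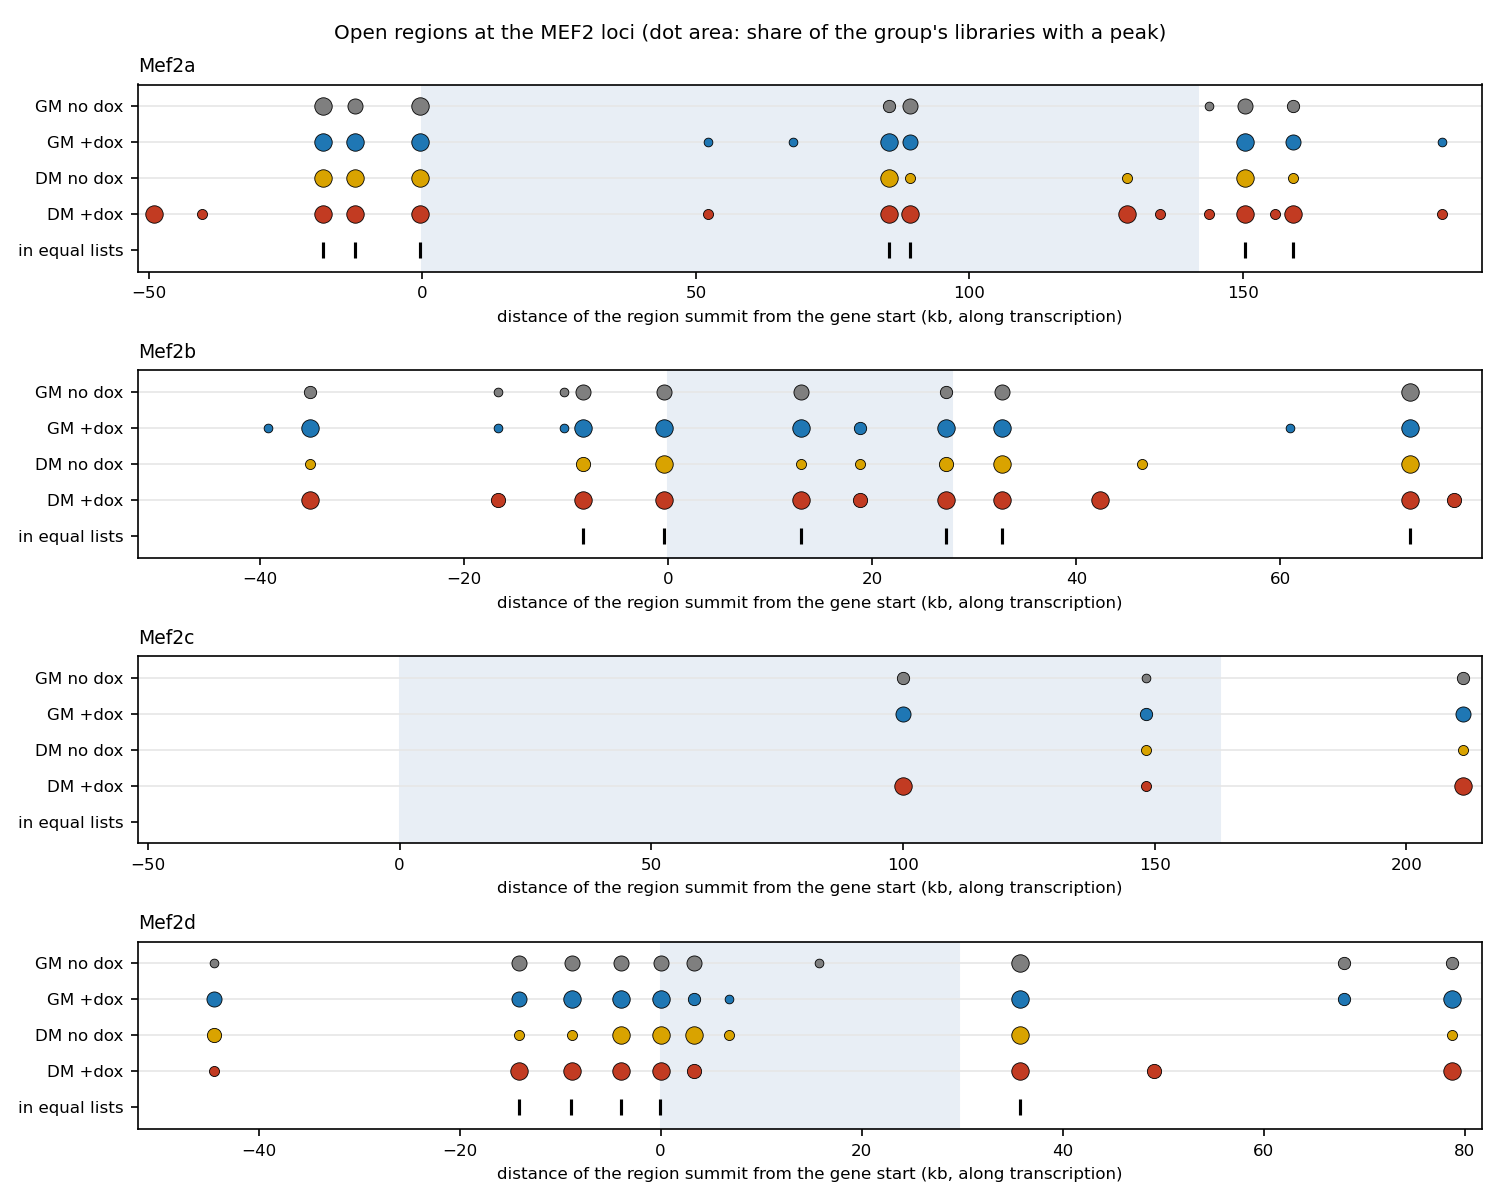
Regions at each MEF2 gene by the distance of their summit from the gene start in kb, along the direction of transcription, with all deposited peaks of the 14 kept libraries. Dot area is the share of a group's libraries with a peak, shading is the gene body and ticks mark the regions found in the equal-length lists; Mef2c has 3 regions and no tick, and Mef2a has 16 regions and 7 ticks.

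Of the 46 regions, 12 lay within 1 kb of an annotated start site and 34 were distal, whereas 22.4% of all 80290 regions lay near a start site. Their median width was 394 bases (399 over all regions) and their median fold enrichment 6.84 (6.79 over all regions). A peak was present in all 14 kept libraries at 4 of the 46, against 13.8% of all regions, and in 1 library at 8 of the 46, against 23.5%. In the equal-length lists 3 of 18 were present in all 14, against 23.1% of all regions. Fold enrichment here is the fragment pileup at the summit over the local background, as the peak caller wrote it. In such bulk libraries fewer cells with an open site and a less open site in each cell cannot be told apart.

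Start sites differed between members. The main Mef2a start, used by 6 of its 12 annotated transcripts, had a peak in 14 of 14 kept libraries among all deposited peaks and in 11 in the equal-length lists, with the region summit 515 bases upstream. The Mef2d start had one in 13 and 10, with the summit 2 bases away. The upstream Mef2b start had one in 13 and 12, but that summit lay 423 bases from Mef2b and 134 from Rfxank, which encodes a subunit of the RFX complex that acts on MHC class II genes, so the peak cannot be assigned to 1 of the pair.

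At the Mef2a start the values spanned 5.19 to 16.9. Fold enrichment was 5.19, 14.7, 6.58 and 14.2 in GM no dox replicates 1 to 4, 12.4, 13.2, 9.55 and 10.8 in GM +dox, 11.2, 5.70 and 11.5 in DM no dox replicates 2 to 4 and 16.9, 11.4 and 12.9 in DM +dox. The groups overlapped in both media, in DM only by 11.5 against 11.4. The shared start of Mef2b and Rfxank stood higher, at 18.5, 9.61 and 19.0 in GM no dox replicates 2 to 4, with no peak in replicate 1, and at 13.2, 17.4, 18.3 and 16.1 in GM +dox. It was 11.9, 11.7 and 18.3 in DM no dox and 23.3, 22.3 and 20.6 in DM +dox. There the DM groups did not overlap, and how many of all regions showed this was not counted. After normalisation the log2 difference in DM was 0.17 ± 0.171 (SE), with a 95% interval of -0.192 to 0.524 and a limma adjusted p of 0.853.

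Mef2b also had an internal start region, 13 kb into the gene and 66 bases from the start of 4 annotated transcripts. It was open in 11 of 14 libraries in both kinds of list. Fold enrichment there was 18.7, 7.50 and 18.6 in GM no dox replicates 2 to 4, with no peak in replicate 1, and 27.4, 18.3, 18.2 and 15.4 in GM +dox. In DM no dox a peak was listed in replicate 4 alone, at 15.3, while DM +dox replicates 2 to 4 had 20.1, 15.7 and 20.0. The libraries without a peak were thus 1 of 4 in GM no dox and 2 of 3 in DM no dox, and every dox library had one.

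Mef2c has 27 annotated start sites, and 26 of them had no peak within 1 kb in any kept library. The exception was the most downstream one, 546 bases from the summit of the region 148.3 kb into the gene, where 5 libraries had a weak peak with all deposited peaks and none in the equal-length lists. Fold enrichment there was 4.73 to 7.47. The peaks rested on 7 to 11 fragments each, so a single library with no peak says little at this depth.

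Upstream of Mef2a lay the strongest distal region of the family. The region 18.2 kb upstream (chr7:67390577-67391215, intergenic) had a peak in 14 of 14 kept libraries in both kinds of list, with a median fold enrichment of 20.3, and it ranked at 2.2 to 26.0% from the top of its list (median 9.64%). Fold enrichment was 8.47, 21.3, 14.7 and 20.9 in GM no dox replicates 1 to 4 and 23, 25, 21.2 and 16.2 in GM +dox. It was 14.5, 16 and 20.8 in DM no dox replicates 2 to 4 and 27.1, 19.8 and 18.7 in DM +dox. The groups overlapped in both dox comparisons, and the lowest value came from GM no dox replicate 1, the shortest kept list.

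Other distal regions of Mef2a lay inside it. The region 85.2 kb into the gene, in an intron of Mef2a and of the overlapping annotation of Lysmd4, had a peak in 12 of 14 libraries, at a median fold enrichment of 14.4, and was missing in GM no dox replicates 1 and 3. Values were 12.4, 13.2, 12.4 and 12.2 in GM +dox and 15.6, 17.1 and 18.5 in DM +dox. Without dox they were 11 and 16.2 in GM and 7.05, 15.7 and 18.6 in DM, which spanned the values with dox. A second intronic region, 89.1 kb into the gene, was weaker (median 8.81, 10 of 14 libraries) and was found in 1 of 3 DM no dox libraries and in 3 of 3 DM +dox libraries. A peak with a median of 16.4 (13 of 14 libraries) lay 150.3 kb downstream of the Mef2a start, but 23 bases from the start of the non-coding gene 1700112J16Rik.

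The Mef2a region 12.4 kb upstream (chr7:67384862-67385827) is named because its values were seen to differ with dox, not by the naming rule. Fold enrichment was 10.2, 5.02 and 10.1 in GM no dox replicates 2 to 4, with no peak in replicate 1, and 13.2, 16.6, 10.4 and 11.2 in GM +dox. It was 8.39, 5.30 and 11.5 in DM no dox and 18.1, 15.1 and 12.9 in DM +dox. In each medium every dox library lay above every library without dox that had a peak. Fold enrichment in DM also stood apart at other MEF2 regions. At the Tmem161a start it was 24.1 to 26.4 with dox and 12.4 to 19.1 without. At the Mef2a start and 18.2 kb upstream of it the DM groups overlapped. How many of all regions stood apart in this way was not counted, so the pattern cannot be called particular to the region 12.4 kb upstream. A limma fit after quantile normalisation took in 16159 regions with peaks in at least 3 kept libraries of every group. In it the log2 difference at the region 12.4 kb upstream was 0.50 ± 0.162 (SE) in GM and 0.38 ± 0.173 in DM. The 95% intervals were 0.163 to 0.841 and 0.0176 to 0.743, and the limma adjusted p-values over all regions were 0.898 and 0.644, so neither passed the threshold of 0.05. That fit called 0 regions of the 16159 in either dox comparison, with 873 and 1249 at an unadjusted p under 0.05, and GM no dox replicate 1 was left out at this region for want of a peak. With the replicate number as a block the differences were 0.51 (95% interval 0.2 to 0.824) and 0.38 (0.0685 to 0.692), at limma adjusted p = 0.379 and 0.314, and that fit called 0 regions with dox in GM and 17 with dox in DM, no MEF2 region among them. The region and both fits were chosen after the values were seen, so these intervals are not separate support for a difference.

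**Figure D2:**
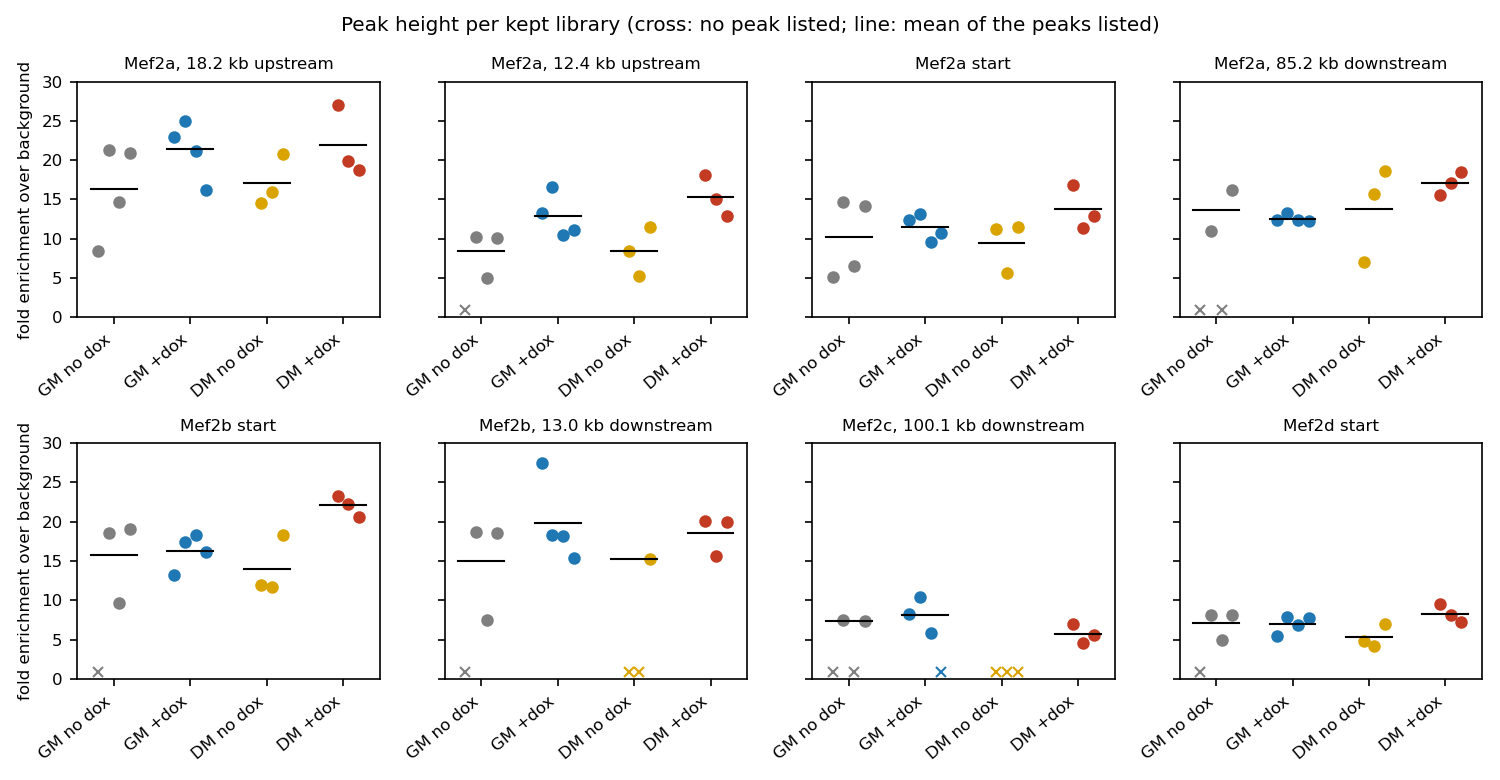
Fold enrichment over local background at 8 MEF2 regions in each of the 14 kept libraries, by group, with all deposited peaks. Points are libraries, crosses libraries with no peak listed and lines the mean of the listed peaks. At 12.4 kb upstream of Mef2a, a region chosen after its values were seen, the dox libraries (10.4 to 18.1) lie above those without dox in the same medium that have a peak. At the Mef2c intronic region all 3 DM no dox libraries have crosses.

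At Mef2d the start and its upstream side were open. The start region had a median fold enrichment of 7.25 over 13 libraries, with a range of 4.13 to 9.52. Values were 8.12, 4.99 and 8.14 in GM no dox replicates 2 to 4 and 5.52, 7.89, 6.84 and 7.77 in GM +dox. They were 4.84, 4.13 and 6.94 in DM no dox and 9.52, 8.18 and 7.25 in DM +dox. The DM groups did not overlap and the GM groups did, and how many of all regions showed this was not counted. The normalised log2 difference in DM was 0.30 ± 0.171 (SE), with a 95% interval of -0.0636 to 0.654 and a limma adjusted p of 0.719. With the replicate number as a block it was 0.30 (95% interval 0.00612 to 0.584), at limma adjusted p = 0.402. In the same block fit, DM no dox minus GM no dox was -0.32 (95% interval -0.606 to -0.0276), at limma adjusted p = 0.306.

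A further 3 regions lay 3.9, 8.8 and 14.1 kb upstream of Mef2d, with peaks in 13, 11 and 10 of 14 libraries. The one at 14.1 kb, with the AP-1 match shown above, was the strongest (median fold enrichment 9.74). It was listed at 12.4, 4.60 and 10.1 in GM no dox replicates 2 to 4 and at 16.3, 8.46 and 5.98 in GM +dox replicates 1 to 3. In DM it was listed at 13.5 in 1 of 3 libraries without dox and at 8.21, 11.9 and 9.43 with dox. A further distal region 78.7 kb downstream (median 8.84), in an exon of the non-coding gene Gm3764, was found in 2 of 4 GM no dox and 4 of 4 GM +dox libraries and in 1 of 3 and 3 of 3 of the DM libraries without and with dox, and its window held the only M-CAT site of the family.

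Several strong regions of the Mef2b window lay at the starts of neighbours. The region 72.8 kb downstream of the Mef2b start (chr8:70212117-70212939) lay 161 bases from the start of Slc25a42, a mitochondrial carrier gene, and ranked by p-value at 0.0606 to 0.476% from the top in all 14 kept lists, at a median fold enrichment of 14.4. The region at the Tmem161a start, 32.7 kb downstream, reached a median fold enrichment of 19.1 in 13 libraries, against 18.3 at the internal Mef2b start and 18.3 at the start shared with Rfxank. The 2 strongest distal regions were a coding exon of Mef2b itself, 27.2 kb downstream (median 12.5, 11 of 14 libraries), and an intron of Ncan 35.1 kb upstream (median 8.15, 10 of 14). Both had a peak in every GM +dox and DM +dox library, in 2 of 4 GM no dox libraries, and in 2 of 3 and 1 of 3 DM no dox libraries.

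Dox in GM compared 4 libraries with 4. Over all deposited peaks Mef2a held 2, 8, 5 and 7 peaks in GM no dox replicates 1 to 4 and 8, 9, 7 and 5 in GM +dox. Mef2b held 1, 7, 5 and 9 against 11, 7, 8 and 8, Mef2c 0, 3, 0 and 2 against 3, 3, 1 and 1, and Mef2d 3, 8, 4 and 10 against 11, 7, 9 and 6. The groups overlapped at all 4 genes. Mean differences (+dox minus no dox) were 1.75, 3.00, 0.75 and 2.00 peaks, against a median of 1.5 over all genes, and the lowest adjusted p of the 4 was 0.595 (exact permutation test, two-sided, Benjamini-Hochberg over 18424 genes).

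The differences were smaller in lists of equal length. There the Mef2a mean was 3.75 ± 1.26 (SD, n = 4) with dox and 2.75 ± 0.957 without, Mef2b 4.75 ± 1.5 and 3.75 ± 1.89, and Mef2d 2.25 ± 0.5 in both groups. The exact permutation test gave adjusted p = 1.0 for each of the 3. Peak numbers did not overlap between the groups at 0.436% of genes tested in equal-length lists and at 1.43% with all deposited peaks, and no MEF2 gene was among either.

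Dox in DM compared 3 libraries with 3, where an exact permutation test cannot go below p = 0.10. Over all deposited peaks Mef2a held 6, 6 and 7 peaks in DM no dox replicates 2 to 4 and 12, 10 and 11 in DM +dox, and Mef2b held 6, 3 and 8 against 9, 10 and 11. At both genes every dox library had more peaks than every library without dox. The differences were 4.67 and 4.33 peaks (exact permutation p = 0.1 and adjusted p = 0.344 for each), and 29.1% of all genes tested did not overlap either, with a median difference of 1.667 over all genes. Mef2c held 0, 0 and 2 peaks against 2, 2 and 3, and Mef2d 4, 5 and 10 against 7, 10 and 8.

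In equal-length lists the differences were 0.333 peaks at Mef2a, 1.67 at Mef2b and 0.667 at Mef2d. There Mef2a held 4, 3 and 4 peaks without dox and 4, 4 and 4 with it, and Mef2b 3, 3 and 5 against 4, 6 and 6. Mef2d held 2, 1 and 3 against 2, 3 and 3. All groups overlapped, at adjusted p = 1.0 (exact permutation test), and the share of genes without overlap was 2.79%.

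**Figure D3:**
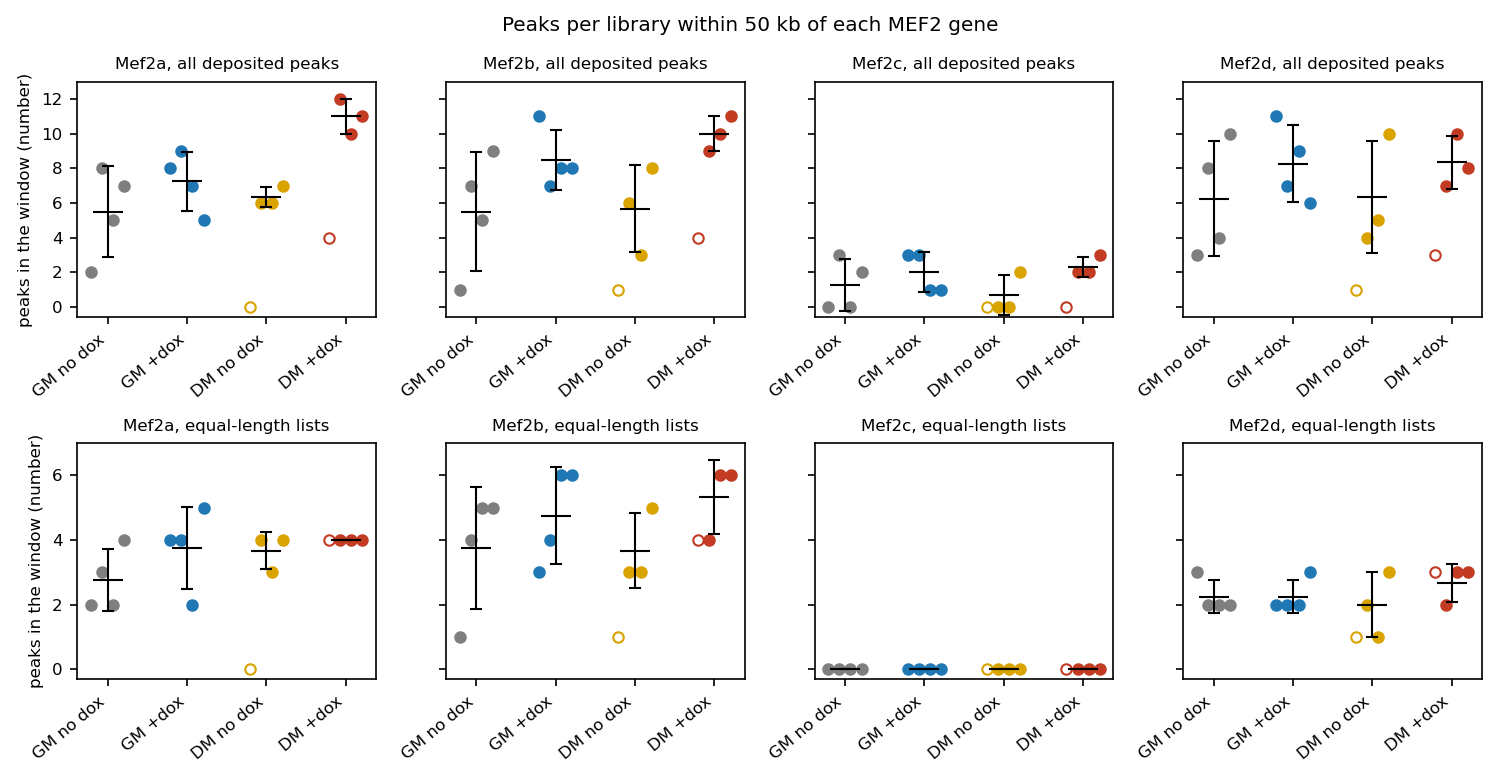
Peaks per library in the window of each MEF2 gene, with all deposited peaks (upper row) and in the equal-length lists (lower row). Filled points are the 14 kept libraries, open points the 2 DM libraries left out, and black bars the mean ± SD of the kept libraries; DM +dox stands above DM no dox at Mef2a and Mef2b in the upper row (10 to 12 against 6 to 7 at Mef2a) but not in the lower row.

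For differentiation without dox the mean numbers lay within 1 peak of each other at all 4 genes. With all deposited peaks DM no dox minus GM no dox was 0.833 at Mef2a, 0.167 at Mef2b, -0.583 at Mef2c and 0.0833 at Mef2d, with adjusted p = 1.0 for each (exact permutation test) and overlapping groups. In the equal-length lists it was 0.917 at Mef2a, -0.0833 at Mef2b and -0.25 at Mef2d, again with adjusted p = 1.0 by the exact permutation test. Peak numbers did not overlap at 0.166% of genes with all deposited peaks and at 2.91% in the equal-length lists.

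For differentiation with dox the groups were apart at Mef2a alone among the 4 genes, and in the full lists only. DM +dox libraries held 12, 10 and 11 peaks there and GM +dox libraries 8, 9, 7 and 5, a difference of 3.75 without overlap. The exact permutation p was 0.0571, the smallest that 3 against 4 libraries allow, the adjusted p was 1.0, and 3.06% of genes did not overlap. Differences were 1.5 at Mef2b, 0.333 at Mef2c and 0.0833 at Mef2d with overlapping groups. In the equal-length lists the Mef2a difference was 0.25 peaks (4.00 ± 0.0 against 3.75 ± 1.26), the Mef2b difference 0.583 and the Mef2d difference 0.417, with adjusted p = 1.0 for each (exact permutation test). There 3.24% of all genes did not overlap. This comparison shares its DM +dox libraries with dox in DM.

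Single regions with a peak in all libraries of a group but in none of its counterpart were next counted. No MEF2 region in the equal-length lists was of this kind in any of the 4 comparisons, among 15 to 18 with a peak. Of all regions, 0.287% were of this kind with dox in GM and 1.61% with dox in DM. Differentiation gave 2.03% in the absence of dox and 2.21% in its presence.

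With all deposited peaks 3 of 40 MEF2 regions (7.5%) had a peak in every DM +dox library and in no DM no dox library, against 5.37% of all regions. They were the regions 49.0 kb upstream of Mef2a, 42.4 kb downstream of Mef2b in Tmem161a, and 100.1 kb into Mef2c. For differentiation with dox 3 of 44 (6.82%) had a peak in every DM +dox library and in no GM +dox library, against 1.49% of all regions. These were the same Mef2a and Mef2b regions and one 128.8 kb into Mef2a. No MEF2 region was lost in this way in either comparison, where 0.0142% and 0.319% of all regions were. None appeared or was lost with dox in GM (0.446% and 0.0% of all regions) or with differentiation without dox (0.205% in each direction).

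The regions differed in strength. The region 49.0 kb upstream of Mef2a was listed at fold enrichments of 8, 6.35 and 6.11 in DM +dox replicates 2 to 4 and in no other library of any group, on 10 to 14 fragments. The Mef2b one was listed at 7.38, 5.92 and 3.68 in the same libraries and no other, on 9 to 13 fragments. They ranked at 72.0 to 80.3% and 76.9 to 97.4% from the top of their lists, beyond the end of the equal-length lists. The region 128.8 kb into Mef2a reached 9.60, 10.2 and 11.3 in DM +dox and was also listed at 6.31 in DM no dox replicate 4.

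The Mef2c intronic region was not particular to DM +dox. It was listed at 7.47 and 7.37 in GM no dox replicates 2 and 4, at 8.24, 10.4 and 5.89 in GM +dox replicates 1 to 3, and at 6.93, 4.62 and 5.64 in DM +dox replicates 2 to 4. No DM no dox library had it. The third Mef2c region, 211.2 kb downstream of the start and 6172 bases from the start of C130071C03Rik, followed a like pattern with peaks in 2 of 4, 3 of 4, 1 of 3 and 3 of 3 libraries of GM without and with dox and of DM without and with dox. Peaks at the 2 regions rested on 7 to 23 fragments and ranked at 49.6 to 92.9% from the top.

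Peak strength could be tested by limma at the regions with a peak in all 14 equal-length lists, 6068 in all, of which 3 lay at MEF2 genes. They were the Mef2a region 18.2 kb upstream, the Slc25a42 start in the Mef2b window, and a region 35.7 kb downstream of the Mef2d start, 326 bases from the start of 1700113A16Rik. At the Mef2a region the normalised log2 difference with dox was 0.05 (95% interval -0.179 to 0.27) in GM and -0.12 (-0.381 to 0.137) in DM. For DM against GM it was -0.00206 (-0.244 to 0.24) in the absence of dox and -0.17 (-0.412 to 0.0724) in its presence. The limma adjusted p-values were, in this order, 0.955, 0.847, 0.999 and 0.988. The intervals of this unpaired fit thus leave out a difference of 0.5 in normalised log2 fold enrichment in either direction at this region. Quantile normalisation removes a shift shared by all regions of a library, so the intervals do not cover such a shift.

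The other 2 regions did not pass either. For dox in DM the log2 difference was -0.33 (95% interval -0.659 to 0.00724) at the Slc25a42 start and -0.23 (-0.521 to 0.0598) at the region 35.7 kb from Mef2d, with limma adjusted p = 0.73 and 0.759. For dox in GM it was -0.17 and 0.04. DM against GM gave -0.03 and 0.06 when dox was absent and -0.18 and -0.21 when it was present. The difference between the dox effects in DM and GM was -0.17 at the Mef2a region, -0.15 at the Slc25a42 start and -0.27 near Mef2d, each at limma adjusted p = 1.0. Over all 6068 regions limma called 0.0% in either dox comparison (378 regions in GM and 417 in DM at an unadjusted p under 0.05, and 3 called in GM without GM no dox replicate 4), 0.0% for the difference of dox effects (134 regions), 0.033% for differentiation in the absence of dox (480 regions) and 0.0% in its presence (292 regions). The wider fit described for the region 12.4 kb upstream of Mef2a held 10 MEF2 regions. In it dox in GM went with higher values at 5 and lower values at 5, and dox in DM at 7 and 3. The limma adjusted p was at least 0.532 in every comparison. With the replicate block added, the 95% interval for dox in DM was 0.0101 to 0.596 at the Tmem161a start. At the Slc25a42 start it was -0.68 to -0.0369. The limma adjusted p-values were 0.398 and 0.352.

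**Figure D4:**
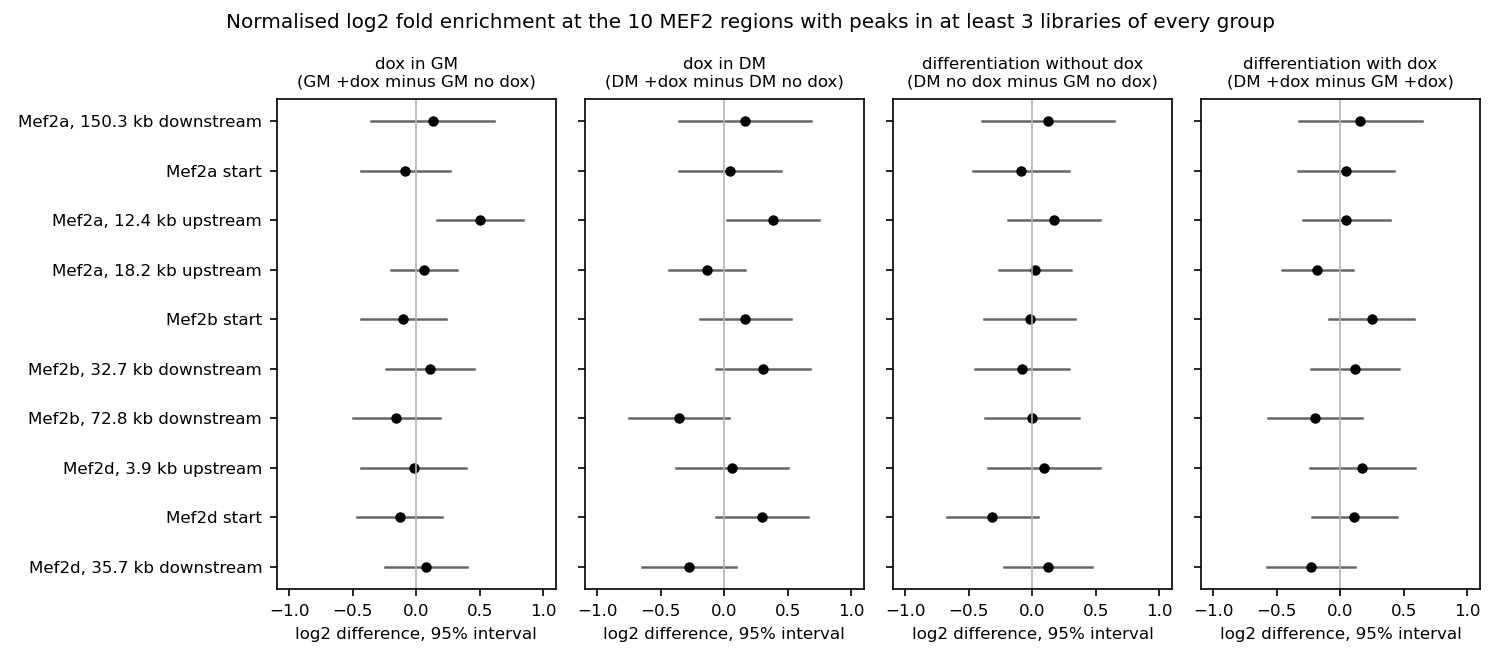
Normalised log2 differences in fold enrichment (x axis) with 95% intervals from the limma fit over 16159 regions, at the 10 MEF2 regions with peaks in at least 3 kept libraries of every group. Each panel is 1 comparison. The region 12.4 kb upstream of Mef2a is the one whose interval lies above 0 for dox in GM (0.163 to 0.841) and dox in DM (0.0176 to 0.743). It was chosen after its values were seen, and its adjusted p-values do not pass 0.05.

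Genes that act on MEF2 proteins, and known MEF2 targets, were counted in the same way. None of 18 regulators or 9 targets passed the adjusted threshold in any comparison in either kind of list, and no other coding gene did. An unadjusted exact permutation p under 0.05 was possible only for dox in GM, with 4 libraries against 4. None of the regulators or targets had one there. The other comparisons could not give one at any gene. The median difference over the regulators in equal-length lists was 0.0 with dox in either medium, 0.25 for differentiation without dox and 0.0835 with dox. Over the targets it was 0.0 with dox in GM, 0.333 in DM, -0.0416 without dox and 0.0 with dox on differentiation. In the full lists all 18 regulators and all 9 targets had more peaks in DM +dox than in DM no dox, 6 and 4 of them without overlap, against 29.1% of all genes. The median difference was 2.67 over the regulators, 2.0 over the targets and 1.667 over all genes. Every kept DM +dox list was longer than every kept DM no dox list. The share of all genes with more peaks in DM +dox was not counted, so this direction cannot be called particular to the regulators and targets.

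In the equal-length lists Mapk14, Mapk7 and Myog reached the smallest p that 3 against 4 libraries allow, and in the full lists Ppp3ca, which encodes a calcineurin catalytic subunit, did so for differentiation with dox (14.3 against 10.8 peaks, exact permutation p = 0.0571, adjusted p = 1.0). Mapk14, which encodes p38α, averaged 3.00 peaks in DM no dox and 1.25 in GM no dox in the equal-length lists, without overlap (exact permutation p = 0.0571, adjusted p = 1.0). In DM it averaged 1.00 with dox against 3.00 without, with no overlap there, but 10 against 4.67 with all deposited peaks, so the direction turned with list length. Mapk7, which encodes ERK5, averaged 3.00 in DM +dox and 1.25 in GM +dox in equal-length lists (exact permutation p = 0.0571, adjusted p = 1.0), and with dox in GM 1.25 against 2.25. Of all genes tested in the equal-length lists, 2.91% did not overlap for differentiation without dox and 2.79% for dox in DM. For differentiation with dox the share was 3.24% in those lists and 3.06% in the full lists.

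Of the repressors, Hdac4 averaged 8.67 peaks in DM no dox and 6.50 in GM no dox (exact permutation p = 0.114, adjusted p = 1.0). Of the kinases, Camk1 averaged 4.00 in GM +dox and 3.25 in GM no dox (exact permutation p = 0.143, adjusted p = 1.0). Among the targets, Myog, the gene of the muscle regulator myogenin, averaged 0.0 peaks in DM +dox and 1.00 in GM +dox in equal-length lists (exact permutation p = 0.0571, adjusted p = 1.0, no overlap) and 3.00 in both with all deposited peaks. Without dox Myog averaged 0.0 in DM and 0.75 in GM in the equal-length lists. Of all genes, 3.24% did not overlap for differentiation with dox in those lists. Nr4a1, an orphan nuclear receptor gene, averaged 7.67 in DM +dox against 6.67 in DM no dox and 5.75 in GM +dox. Xirp1, a gene of a muscle actin-binding protein, averaged 4.67 against 2.67 with dox in DM, Slc2a4, the gene of the muscle glucose transporter, 5.50 against 4.25 with dox in GM, and Jun 3.67 in DM no dox against 4.75 in GM no dox. None of these passed the adjusted threshold, at adjusted p = 1.0 for each by the exact permutation test.

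The 2 libraries left out had few peaks at these genes, as in their whole lists. DM no dox replicate 1 had 0, 1, 0 and 1 peaks at Mef2a, Mef2b, Mef2c and Mef2d, and DM +dox replicate 1 had 4, 4, 0 and 3. The latter listed the region 18.2 kb upstream of Mef2a at 5.70 and the Mef2a start at 8.47.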

How the data were processed

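ATAC-seq peak lists of 16 C2C12 libraries, 4 in each of 4 groups, were used. The labels call them biological replicates, and p-values here measure only the spread between these samples. The authors ran the nf-core/atacseq pipeline on mm10 with blacklisted regions removed and called narrow peaks per library with MACS2. The deposited lists give each peak's fold enrichment, a ratio of summit pileup over local background, and its −log10 p-value and −log10 q-value. Total read depth is not given in the sources used here. The whole number of fragments at a summit was solved from fold and p. The solved number gave the listed −log10 p within 0.01 for 100.0% of peaks with −log10 p under 30. Of 120 pairs of lists, 0 were identical.

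Peaks were assigned by summit to GENCODE M21 gene windows (gene body plus 50 kb each side) in python 3.11.15 (numpy 2.4.6, pandas 2.3.3, scipy 1.17.1), and peaks sharing at least 1 base were merged into regions. The 14 libraries left after the study's own exclusion were compared in full lists and in the 14710 strongest peaks by −log10 p. Peak numbers were compared by a two-sided exact permutation test, adjusted by Benjamini-Hochberg over all coding genes with a peak. The smallest p is 0.0286 for 4 libraries against 4, 0.0571 for 3 against 4 and 0.1 for 3 against 3. Fold enrichment, as log2 after quantile normalisation, was tested with limma 3.58.1 in R 4.3.3. The limma and count steps were tested on simulated data. Motifs were searched in 201 bases around each summit.

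Regions were named by rule where they lay over a member's start site (the start with most libraries), were present in all libraries of one group and none of the other in the equal-length lists, were called by limma, or were among the 2 distal regions of a gene (over 1 kb from any start site) with the highest median fold enrichment. Any other region in the text was chosen after its values were seen. Of the regulators and targets, those with the 3 lowest p-values in each comparison were named. The members and all gene lists were chosen with earlier results of these data known. Replicate numbers were checked for pairing. Correlations of same-numbered deviations were 0.112 to 0.192 for dox in GM, 0.128 to 0.323 for dox in DM and 0.158 to 0.426 for differentiation with dox, so the numbers were taken as pairs there. Those of differently numbered libraries were, in this order, -0.168 to 0.181, -0.261 to 0.0256 and -0.291 to 0.134. For dox in GM the 2 ranges overlapped, so the pairing is least certain there. The tests given are unpaired unless a replicate block is named, and they were repeated with the block. For differentiation without dox the lowest correlation was 0.0634, and the numbers were not taken as pairs, though the block was also run there. Alternatives covered list length, ranking, the q-value minimum, window width, region merging, normalisation, the replicate block and leaving out each library.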

Additional observations from a re-analysis of the deposited data

Results flagged for a closer look

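Among 25 groups of 4 libraries looked at, 2 held a library apart from the others. Chance gives about 1 in 20 for continuous values, but that rate does not hold for small counts with ties. Both were peak numbers at Mef2d in the equal-length lists. GM no dox replicate 1 had 3 peaks while the other 3 libraries had 2 each, and GM +dox replicate 4 had 3 peaks while the others had 2 each. Each gap is a single peak, and the rule flags any group of 4 in which 3 libraries share a count and the other differs.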

How the results depend on the processing

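Of 747 recomputed values at the MEF2 genes and named regulators and targets, 40 turned sign and 7 counts moved by over 1.5 times. The other 700 did neither, but differences that grew or shrank without turning are among them. At Mef2a, dox in DM gave 0.333 peaks in equal-length lists and 4.67 with all deposited peaks. None of the recomputed values had an adjusted p under 0.05 in limma or the exact permutation test. The cause of a change was not tested unless named here. For peak numbers the differences that turned were, with a list of 7355 peaks, -1.0 at Mef2a for dox in DM and 0.25 at both Mef2b and Mef2d for differentiation without dox. Ranking by fold enrichment gave -0.333 at Mef2d for dox in DM and -0.25 for differentiation with dox. All deposited peaks gave 0.167 at Mef2b and 0.0833 at Mef2d for differentiation without dox (0.0833 also at a −log10 q of at least 2) and 5.33 at Mapk14 for dox in DM. Within replicate numbers 1 and 2 the Mef2b difference without dox was 0.5.

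Regions in every library of one group and none of the other, 0 at MEF2 genes in equal-length lists, numbered 3 with all deposited peaks for dox in DM and 3 for differentiation with dox, 3 and 3 at a −log10 q of at least 2, and 2 for dox in DM within replicate numbers 3 and 4. Within replicate numbers 1 and 2 this count was not run, since 1 DM library per group is left.

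Peak strength at 18.2 kb upstream of Mef2a turned to -0.0743 for dox in GM within numbers 3 and 4, to 0.1028 for dox in DM within numbers 1 and 2, and for differentiation without dox to 0.02276 within numbers 1 and 2, 0.005879 at regions in every library among all deposited peaks and 0.01969 in the wider fit, which was chosen after seeing the data. Near Mef2d it was -0.102 without dox within numbers 3 and 4 and 0.04616 with dox on log2 of −log10 p. At the Slc25a42 start, differentiation without dox gave 0.1514 on log2 of −log10 p and 0.01915 within numbers 1 and 2, differentiation with dox 0.1361 on log2 of −log10 p and 0.002338 with all 16 libraries, where the difference of dox effects was 0.0721. With the replicate block it was 0.01459 for differentiation without dox, and 0.03191 with the block in the wider fit. The replicate block, fitted by limma on the 3 regions and, as a choice made after seeing the data, on the 10 of the wider fit, gave no call at them. For peak numbers the paired sign-flip test cannot pass the threshold with so few pairs. The half-length lists left 1 MEF2 region in the limma fit and all 16 libraries left 2.

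Leaving out 1 library at a time gave peak-number differences of -1.0 to 0.333 at Mef2b and -0.75 to 0.25 at Mef2d without dox, and -0.333 to 0.667 at Mef2a for differentiation with dox. The count of regions for dox in DM ran from 0.0 to 2.0, and was above 0 without DM no dox replicate 4 (2) and without DM +dox replicate 2 (1). Peak strength for dox in GM ran from -0.04806 to 0.132 near Mef2d and from -0.001422 to 0.1109 at Mef2a, and for differentiation without dox from -0.02085 to 0.1443, -0.04484 to 0.0325 and -0.1676 to 0.1372 near Mef2d, at Mef2a and at the Slc25a42 start. Over all regions limma called 2 for differentiation without dox, against 35 at regions in every library among all deposited peaks, 30 in the wider fit, 12 on log2 of −log10 p, 8 with the replicate block and 15 without GM no dox replicate 4. For differentiation with dox it called 0, against 8, 12 and 21 in the first 3 of these. For dox in GM it called 0, against 3 without GM no dox replicate 4 and 1 on log2 of −log10 p. With the block the wider fit called 202 for differentiation without dox, 78 with dox and 17 for dox in DM.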
